A study of Mus musculus with 2 samples.

Results

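The cell cycle and DNA replication genes examined here are 50 genes for the MCM helicase, the origin recognition complex and other licensing factors, the sliding clamp and its loader, cyclins, cyclin-dependent kinases (CDKs) and their inhibitors, E2F factors, pocket proteins, mitotic kinases and proliferation markers. They were listed by symbol for their roles, with earlier results of these data known, and all 50 were found among the 21041 genes of the expression table, with values above 0 in both libraries. The question was whether the library from mutant thymocytes carried more transcript from cycling cells. The study sequenced mRNA from CD4+ CD8+ double-positive (DP) thymocytes, the main population of the thymus, with 1 library from WT and 1 from Cxxc1-deficient mice. Cxxc1 (CFP1) is the CpG-binding subunit of the Setd1 complex, which trimethylates lysine 4 of histone H3 at promoters. By the study's methods, the deficient mice were Cxxc1 fl/fl hCD2-Cre, in which a Cre transgene under the human CD2 promoter deletes exons 4 and 5 in lymphoid cells, and the WT mice carried Cxxc1 fl/fl without Cre. The genotype label of the deficient sample reads Cxxc1+/-, which differs from its title (KO). Mice were 3 to 4 weeks old unless specified, and the number of mice behind each library was not stated. The library from these mice is called the deficient library below. With 1 library per genotype there was no replicate check, so no p-value is given and every difference is between these 2 libraries.

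A cell that enters the cycle first inactivates the pocket proteins (the retinoblastoma family) through cyclin D with Cdk4 or Cdk6, which frees E2F factors to induce genes for replication. Origins are marked by the origin recognition complex, licensed by Cdc6 and Cdt1, which load the MCM helicase, and fired by kinases that recruit Cdc45, while cyclins A and B with Cdk1 bring about mitosis. In the thymus, cells divide rapidly as they pass from the CD4- CD8- double-negative (DN) stage to the early DP stage, and most DP cells are then small and resting, with the CDK inhibitor p27 (Cdkn1b) among the proteins that hold them out of the cycle.

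Many promoters of such genes carry letters that E2F and mitotic regulators are known to bind. As examples, the windows of 2 replication genes and 2 mitotic genes are shown, each with at least 2 matches. Each window covers 300 bases, from 250 before to 50 after a transcription start, as given by RefSeq for GRCm38.p6, and was placed in mm9 by its single exact match. A window was found for 39 of the 50 members, all located once. In the Mcm5 and Mcm6 windows, capitals mark the E2F letters searched on both strands (TTTCCCGC, TTTGGCGC, TTTGCCGC or TTTCGCGC, whose matches can overlap). In the Ccnb2 and Mki67 windows, capitals mark the cell cycle homology region (CHR, TTTGAA) and the NF-Y box (CCAAT), likewise on both strands.
Mcm5, chr8:77633158-77633457, plus strand: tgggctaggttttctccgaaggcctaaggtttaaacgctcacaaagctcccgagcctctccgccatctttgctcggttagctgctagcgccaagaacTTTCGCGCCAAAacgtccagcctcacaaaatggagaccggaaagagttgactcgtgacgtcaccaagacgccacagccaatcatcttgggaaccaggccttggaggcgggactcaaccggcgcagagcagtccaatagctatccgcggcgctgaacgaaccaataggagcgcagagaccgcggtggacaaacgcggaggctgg
Mcm6, chr1:130256233-130256532, minus strand: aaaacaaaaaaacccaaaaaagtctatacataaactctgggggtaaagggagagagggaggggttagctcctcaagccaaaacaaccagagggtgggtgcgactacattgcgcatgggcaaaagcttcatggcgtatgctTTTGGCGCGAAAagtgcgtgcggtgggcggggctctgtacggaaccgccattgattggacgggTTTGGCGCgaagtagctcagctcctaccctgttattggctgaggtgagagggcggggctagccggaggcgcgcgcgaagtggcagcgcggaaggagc
Ccnb2, chr9:70269312-70269611, minus strand: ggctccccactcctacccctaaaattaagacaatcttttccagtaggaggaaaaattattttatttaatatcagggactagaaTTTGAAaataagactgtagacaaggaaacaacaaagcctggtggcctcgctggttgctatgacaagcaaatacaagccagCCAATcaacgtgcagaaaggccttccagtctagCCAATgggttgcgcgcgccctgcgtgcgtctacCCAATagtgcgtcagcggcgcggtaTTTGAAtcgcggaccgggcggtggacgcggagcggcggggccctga
Mki67, chr7:142908013-142908312, minus strand: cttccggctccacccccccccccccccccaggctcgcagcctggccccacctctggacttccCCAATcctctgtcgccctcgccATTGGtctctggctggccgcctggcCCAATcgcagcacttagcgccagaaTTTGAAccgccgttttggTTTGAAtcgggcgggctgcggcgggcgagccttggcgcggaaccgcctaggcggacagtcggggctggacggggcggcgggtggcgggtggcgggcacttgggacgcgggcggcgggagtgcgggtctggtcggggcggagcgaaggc

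The E2F letters were present in 12 of 39 member windows (30.8%), against 2.39% of all 27025 promoter windows and 4.75% of the 1917 windows of genes with a mean value of at least 100. They stood in 8 of 19 windows of replication genes (helicase, origin, licensing, clamp and loader genes), with 3 matches in Mcm6 and 2 each in Mcm3, Mcm5 and Rfc3, and in 0 of 7 windows of the A- and B-type cyclins, mitotic kinases and proliferation markers. Those 7 mitotic windows held the CHR in 5 (Ccnb2, Aurka, Plk1, Mki67 and Top2a) and the NF-Y box in all 7, against 17.7% and 37.4% of all promoters. The 19 replication windows held the CHR in 2 and the NF-Y box in 12 (63.2%). The Cdk1 window, counted in neither set, had 1 E2F, 2 CHR and 3 NF-Y box matches. CpG pairs, which the CXXC domain of Cxxc1 binds when unmethylated, numbered 10 or more in 38 of the 39 windows (97.4%), the exception being Mcm3 with 8. That share was 45.8% over all promoters and 91.5% over genes averaging 100 or more, so a CpG-dense promoter is common to the members and to well-expressed genes alike. The letters are a description of these windows and not evidence of binding.

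**Figure D1:**
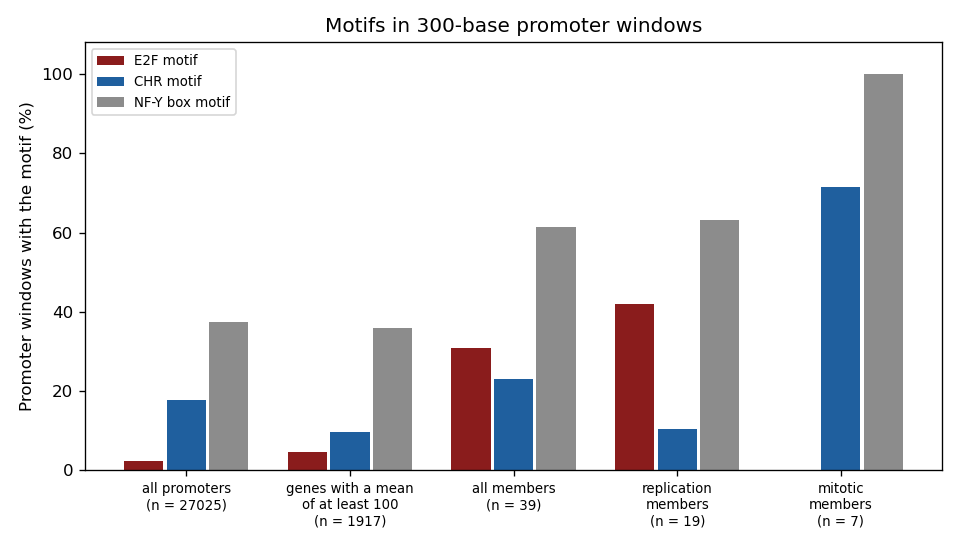
Share of promoter windows (%) with at least 1 match to the E2F, CHR or NF-Y box motif, for all promoters, genes with a mean value of at least 100, all members with a window, replication members and mitotic members. The E2F bar is highest for replication members (42.1%) and absent for mitotic members, whose CHR bar reaches 71.4%.

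The 4 well-expressed members with the largest fall in value between the libraries, Ccnd3, E2f2, Cdkn1b and Rbl2, had windows with 28, 18, 30 and 14 CpG pairs. Their windows are shown for comparison with those above, with each CpG in capitals. The windows shown held 0, 1, 0 and 0 matches to the E2F letters. Ccnd3 and E2f2 have 2 windows each, of which 1 is shown, that of Ccnd3 from inside the gene.
Ccnd3, chr17:47730166-47730465, plus strand: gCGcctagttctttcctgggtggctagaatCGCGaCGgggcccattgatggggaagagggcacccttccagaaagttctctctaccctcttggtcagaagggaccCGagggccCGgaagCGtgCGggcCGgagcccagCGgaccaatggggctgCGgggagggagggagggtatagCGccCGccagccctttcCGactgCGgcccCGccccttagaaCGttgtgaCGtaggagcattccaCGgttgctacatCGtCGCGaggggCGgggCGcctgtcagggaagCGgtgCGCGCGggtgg
E2f2, chr4:135727939-135728238, plus strand: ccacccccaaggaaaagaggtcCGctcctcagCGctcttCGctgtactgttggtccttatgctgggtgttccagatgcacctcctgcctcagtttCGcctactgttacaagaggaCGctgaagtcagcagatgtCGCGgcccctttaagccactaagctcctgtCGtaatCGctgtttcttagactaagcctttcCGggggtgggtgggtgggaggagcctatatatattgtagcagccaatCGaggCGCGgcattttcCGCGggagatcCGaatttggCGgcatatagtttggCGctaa
Cdkn1b, chr6:134870169-134870468, plus strand: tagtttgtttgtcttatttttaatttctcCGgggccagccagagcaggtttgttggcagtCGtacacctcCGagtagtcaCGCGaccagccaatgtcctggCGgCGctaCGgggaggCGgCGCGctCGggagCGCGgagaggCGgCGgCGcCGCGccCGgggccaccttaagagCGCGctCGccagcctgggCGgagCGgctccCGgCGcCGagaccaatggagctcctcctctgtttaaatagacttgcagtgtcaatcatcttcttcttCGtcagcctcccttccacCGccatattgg
Rbl2, chr8:93593706-93594005, plus strand: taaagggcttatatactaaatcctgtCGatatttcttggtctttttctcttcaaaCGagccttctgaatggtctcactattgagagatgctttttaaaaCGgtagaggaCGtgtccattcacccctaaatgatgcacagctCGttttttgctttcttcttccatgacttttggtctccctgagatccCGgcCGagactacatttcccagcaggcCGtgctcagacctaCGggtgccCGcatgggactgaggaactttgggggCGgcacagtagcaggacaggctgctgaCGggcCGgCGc

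Expression is given as the deposited normalized value, which scales with reads per length of transcript, so that levels of different genes can be set side by side. From the smallest values, 1 read per kilobase was worth 4.05 units in WT and 4.7 units in the deficient library, and the reads on genes came to approximately 1404354 and 725066. Olfactory receptor genes, which thymocytes are not known to use, had a median of 22 and 24 and a 95th percentile of 54.0 and 57.0. This percentile served as the level of silent genes, and a value below it is not told apart from theirs. Over the 20125 genes above 0 in at least 1 library, the ratio depended on level: the median log2 ratio of Cxxc1-deficient over WT was 0 for genes with a mean value under 50, -0.53 from 50 to 100, -1.0 from 100 to 200, -1.22 from 200 to 500 and -1.61 above that. Each member is therefore also given relative to the median of all genes in its level band. Cxxc1 itself was at 91 in WT and 50 in the deficient library (ratio 0.549, 95% counting interval 0.338 to 0.876), and 26.7% of genes of like level had a ratio as low. The value of 50 lies below the level of silent genes in that library (57.0), so it does not show how much transcript remained. A single value per gene also does not separate the deleted exons from the others. By quantitative PCR the authors could barely detect this transcript in DP cells of deficient mice, and their western blot showed loss of the protein. Of 4 Y-linked genes, 0 were above 0 in WT and 4 in the deficient library, so sex and genotype cannot be told apart. In bulk libraries fewer cycling cells and less RNA per cell cannot be told apart either.

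The members had a median value of 57.5 in WT (range 5 to 488) and 46 in the deficient library (range 7 to 209), above the median of 37 over all genes in both. The level of silent genes was exceeded by 27 of 50 members in WT and 20 in the deficient library, against 31.3% and 20% of all genes. The deposited value was lower in the deficient library for 40 members, higher for 8 and equal for 2, against 60.0% of all genes lower. Under the scalings described below 23 or as few as 8 members were lower, against 32.6% and 17.5% of all genes. At least 2-fold lower were 8 members (Gmnn, Rfc2, Rfc3, Ccnd3, Cdkn1b, Cdkn2c, E2f2 and Rbl2), against 17.4% of all genes, and 1 member, Rfc5, was at least 2-fold higher, against 5.89%. The median log2 ratio was -0.50 (quartiles -0.82 and -0.08), against -0.20 (quartiles -0.77 and 0.24) for all genes. Relative to genes of like level the median member stood at -0.08 on the log2 scale, with 28 below, 20 above and 2 at the median of their band.

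**Figure D2:**
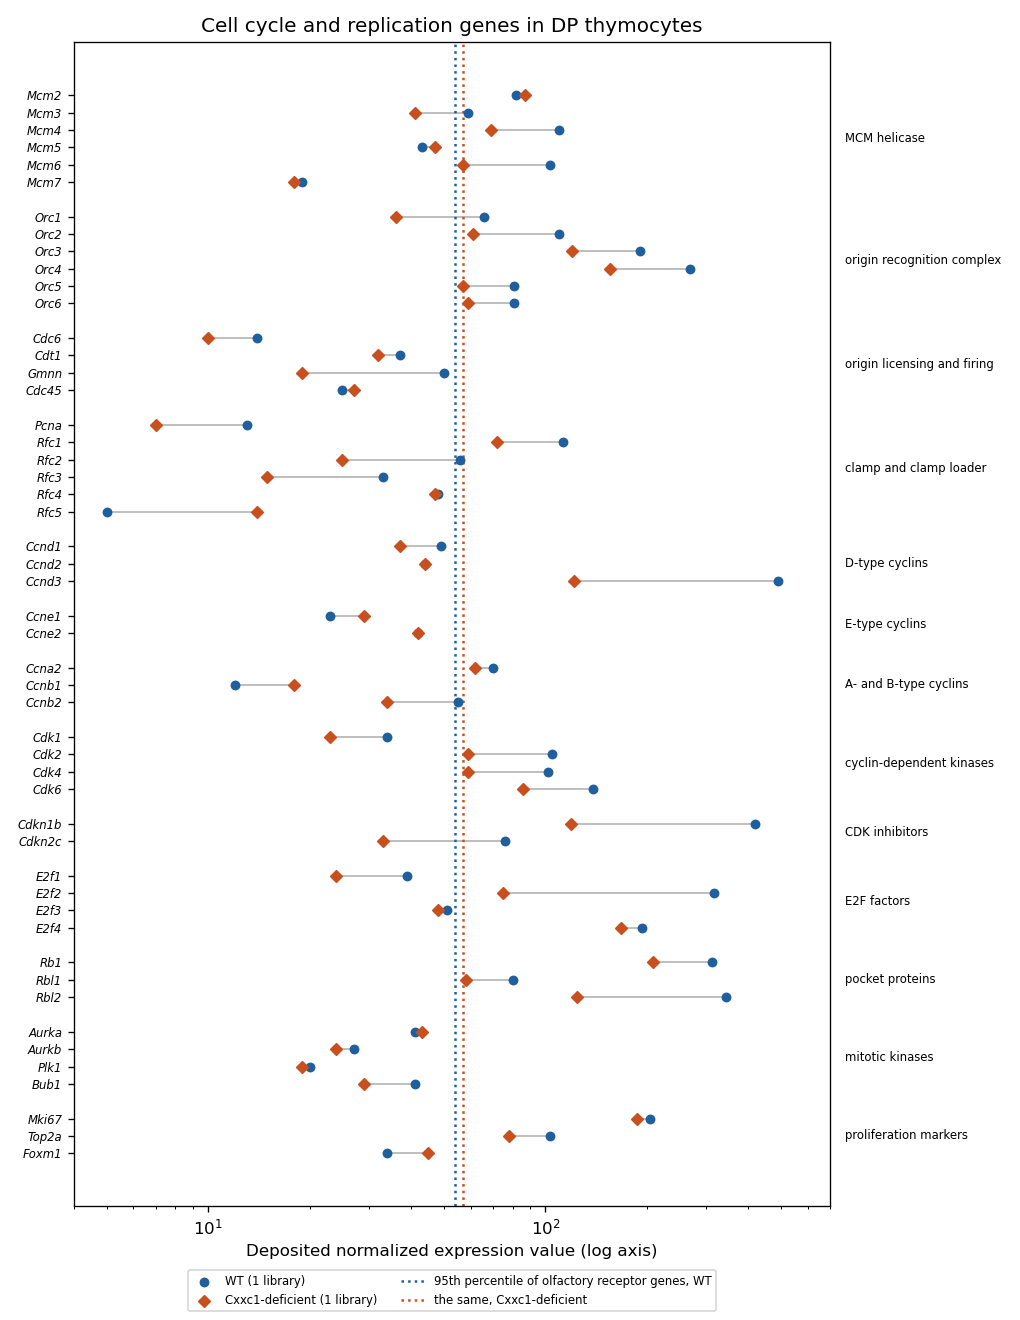
Deposited normalized expression value (log axis) of each of the 50 members in the WT (circles) and Cxxc1-deficient (diamonds) library, grouped by role, with dotted lines at the 95th percentile of olfactory receptor genes (54.0 and 57.0). Ccnd3, Cdkn1b, Rbl2 and E2f2 stand highest in WT and show the longest gaps among well-expressed members, while Mki67 (204 and 187) and E2f4 (193 and 168) show short ones.

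The comparison changed with level. Among the 25 members with a mean under 50, 16 were lower and 7 higher, with 3 lower by 2-fold or more and 1 higher by as much. The shares over all genes at that level were 47.8% lower, 9.75% lower by 2-fold or more and 8.22% higher by 2-fold or more. Of the 15 members between 50 and 100, 14 were lower and 1 at least 2-fold lower (all genes 82.6% and 20%), and 0 were at least 2-fold higher (0.656%). All 10 members averaging 100 or more were lower, 4 of them at least 2-fold and 0 at least 2-fold higher, against 95.2%, 56.8% and 0.485% of all genes. The 4 at least 2-fold lower, Ccnd3, E2f2, Cdkn1b and Rbl2, lay at -1.07 to -0.26 on the log2 scale relative to their bands. Orc3, Orc4, Cdk6, E2f4, Rb1 and Mki67 lay at 0.32 to 0.87. The 4 were set apart by their ratio, so their lower position follows from that cut.

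**Figure D3:**
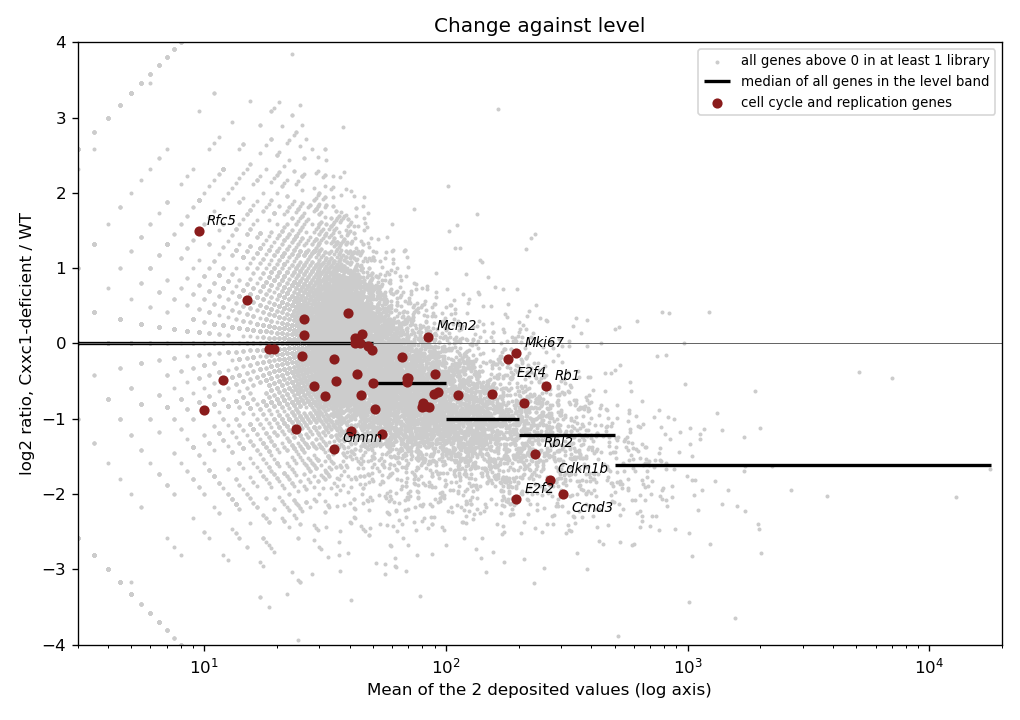
The log2 ratio of Cxxc1-deficient over WT against the mean of both values (log axis) for all genes (grey), the 50 members (red) and the median of all genes in each level band (black bars); genes outside the axes are not drawn. The bars descend from 0 to -1.61 with level, and Mki67, E2f4 and Rb1 lie above their bars while E2f2, Ccnd3 and Cdkn1b lie below.

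Counting error was large for most members. A median member had approximately 44.5 reads in WT and 28 in the deficient library, and the 95% counting interval of the ratio lay below 1 for 16 members and above 1 for 0, against 22.2% and 2.57% of the 18346 genes with an interval. At a mean of at least 100 it lay below 1 for 8 of 10 members and for 88.1% of genes. The intervals cover counting error alone and say nothing of the spread between mice. The deposited scale also matters: multiplying the Cxxc1-deficient values by 1.48, which equalizes the sums without the 100 highest genes, left 23 members and 32.6% of all genes lower. A factor of 2.0, which equalizes the median of genes averaging 100 or more, left 8 members and 17.5% of all genes lower. It put 16 member intervals above 1, a share that was not counted over all genes. Those 8 are necessarily the ones named above, as only a fall of at least 2-fold outlasts that factor. Directions below are on the deposited scale unless stated. Directions given below under either factor are to be read beside these shares of all genes.

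**Figure D4:**
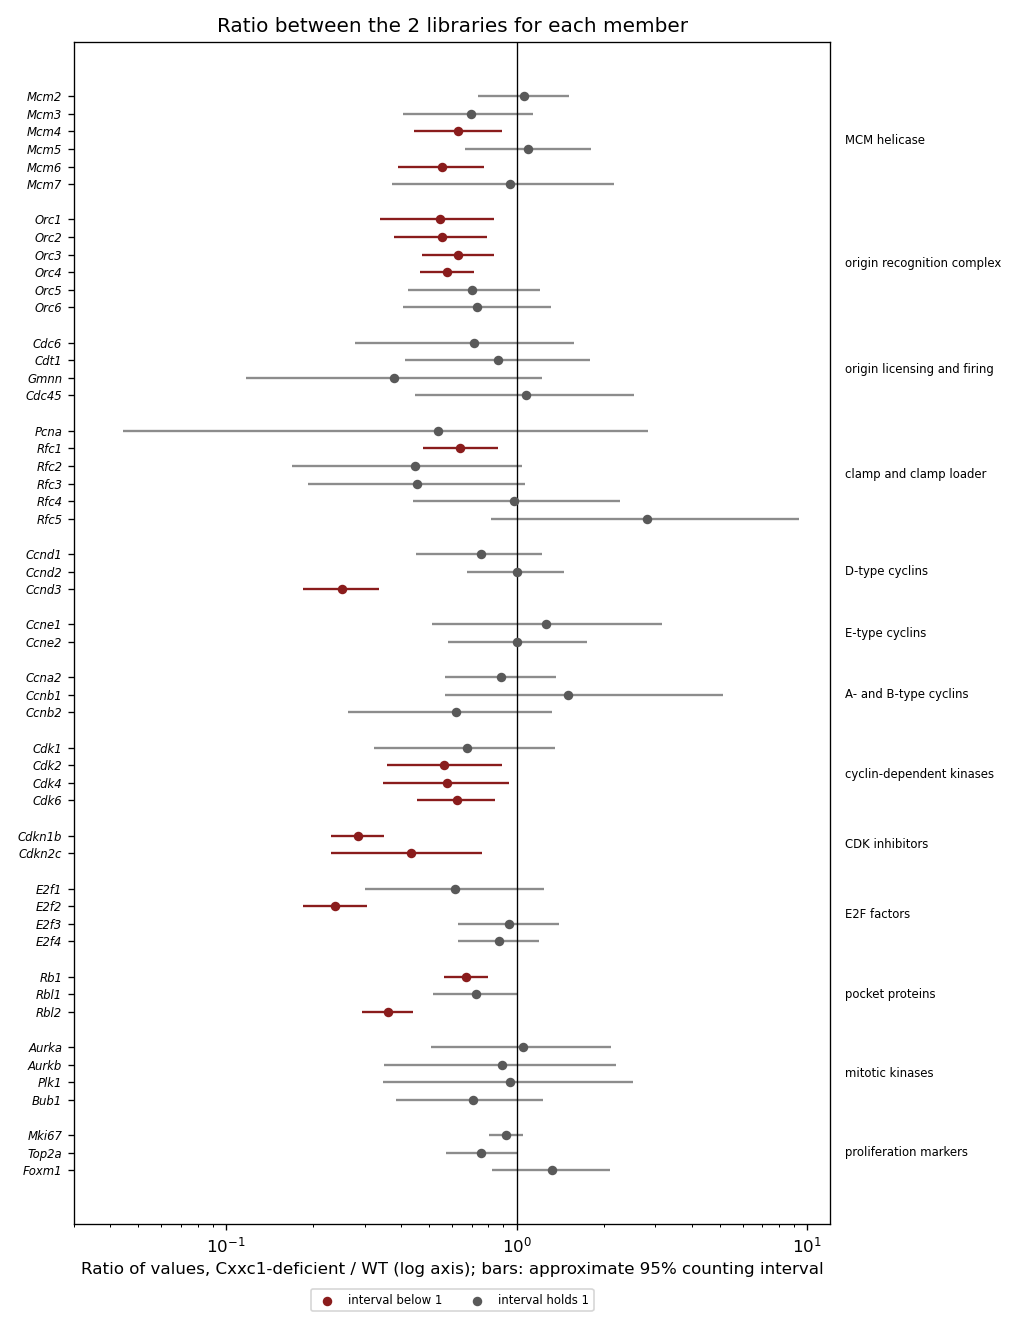
Ratio of Cxxc1-deficient over WT values (log axis) for each member, with bars for the approximate 95% counting interval, grouped by role; red marks the 16 intervals below 1. The intervals of Ccnd3, Cdkn1b, E2f2 and Rbl2 all end at or below 0.440, and that of Mki67 runs from 0.802 to 1.05.

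D-type cyclins start the cycle, and Ccnd3 is the one that thymocytes depend on for the expansion at the DN to DP step. Ccnd3 (chr17:47642000-47736632, mm9) was the highest member, at 488 in WT and 122 in the deficient library, which is 4.0-fold lower (ratio 0.250, interval 0.184 to 0.337, approximately 254 and 55 reads). Of the 703 genes in its level band, 55 (7.82%) had a ratio as low. Of its 50-base stretches, 13.8% occur elsewhere in the genome, and unique mapping leaves reads from these out of both values. Ccnd1 (49 and 37) and Ccnd2 (44 and 44) were below the level of silent genes in both. The Ccnd3 value was 3.54 times that of Cdk6, its kinase partner, in WT and 1.42 times in the deficient library.

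The CDK partners were all lower, by similar ratios, on the deposited scale and with the factor of 1.48, and all higher with the factor of 2.0. Cdk6, the D-cyclin kinase of blood cells, was at 138 and 86 (ratio 0.623, interval 0.455 to 0.840). Cdk4, the other D-cyclin kinase, was at 102 and 59 (ratio 0.578, interval 0.347 to 0.945), and Cdk2, which pairs with cyclins E and A, at 105 and 59 (ratio 0.562, interval 0.359 to 0.890). Cdk1, the mitotic kinase, was below the level of silent genes at 34 and 23. Relative to their bands these 4 lay between -0.56 and 0.32 on the log2 scale.

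Both CDK inhibitors among the members had values more than 2-fold lower in the deficient library. Cdkn1b (chr6:134870419-134875531, mm9) encodes p27, which binds cyclin-CDK complexes and keeps thymocytes in G1, and was at 418 in WT and 119 in the deficient library, 3.51-fold lower (ratio 0.285, interval 0.230 to 0.349, approximately 469 and 115 reads). Nearly all of its transcript (99.0% of 50-base stretches) was unique in the genome. Among the 703 genes of like level 14.2% had a ratio as low. Cdkn2c, encoding p18, an inhibitor of Cdk4 and Cdk6, was at 76 and 33, 2.30-fold lower (ratio 0.434, interval 0.230 to 0.762). Both stayed lower under every scaling tried, as a fall of more than 2-fold must when no factor exceeds 2.0. With the factor of 1.48 or of 2.0 the interval lay below 1 for 1 of the 2, Cdkn1b. The 4 other inhibitors above 0 were near the level of silent genes: Cdkn1a (p21) at 36 and 32, Cdkn1c (p57) at 57 and 36, Cdkn2a at 24 and 25, and Cdkn2b (p15) at 17 and 27, while Cdkn2d (p19) was listed at 0 in both.

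The E2F factors diverged. E2f2 (chr4:135728309-135751972, mm9), known to restrain proliferation of T cells, was at 316 in WT and 75 in the deficient library, 4.21-fold lower (ratio 0.237, interval 0.184 to 0.306, approximately 369 and 76 reads), the largest fold of the 50 members. Of the 1605 genes in its band 53 (3.30%) had a ratio as low, and its mean of 195.5 lies near the band's upper edge of 200. The band above had a lower median log2 ratio, -1.22 against -1.0. E2f4, a factor that represses cell cycle genes in resting cells together with pocket proteins, was at 193 and 168 (ratio 0.870, interval 0.628 to 1.19). Of the 1605 genes in the band it shares with E2f2, 8.16% had a ratio as high. The E2f2 value was thus 1.64 times that of E2f4 in WT and 0.446 times in the deficient library, a comparison within each library that no scaling changes. The activators E2f1 (39 and 24) and E2f3 (51 and 48) were below the level of silent genes in both libraries. All 6 other E2F and DP genes had lower values on the deposited scale (all genes 60.0%). With either the factor of 1.48 or that of 2.0, 1 did (all genes 32.6% and 17.5%). That gene was Tfdp1, the main dimer partner of E2F proteins, at 75 and 36 (ratio 0.480, interval 0.270 to 0.854). The second partner gene, Tfdp2, was at 111 and 86. E2f5 was at 72 and 59, above silent genes in both libraries. The atypical repressor E2f8 was at 54 and 41, at the level of silent genes in WT and below it in the deficient library. E2f7 (39 and 34), the other atypical repressor, and E2f6 (23 and 21) did not exceed silent genes in either.

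Of the pocket proteins, which bind E2F factors and silence their targets, Rbl2 and Rb1 were among the highest members. Rbl2 (chr8:93593956-93647743, mm9), encoding p130 of resting cells, was at 344 in WT and 124 in the deficient library, 2.77-fold lower (ratio 0.360, interval 0.294 to 0.440). Its ratio was common for its level, since 31.4% of its band had one as low. Rb1, the retinoblastoma gene, was at 311 and 209 (ratio 0.672, interval 0.564 to 0.80), with 88.2% of its band as low. Rbl1, encoding p107 of cycling cells, was at 80 and 58 (ratio 0.725, interval 0.516 to 1.01). The value of Rbl2 was 4.3 times that of Rbl1 in WT and 2.14 times in the deficient library. With the factor of 2.0, Rb1 and Rbl1 were higher in the deficient library, while Rbl2, 2.77-fold lower as deposited, necessarily stayed lower.

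Of the markers most used to count cycling cells, Mki67 was close to equal between the libraries and the other two had intervals that reached 1. Mki67 (chr7:142881471-142908062, mm9), which encodes Ki-67 and is transcribed in cycling cells, was at 204 in WT and 187 in the deficient library (ratio 0.917, interval 0.802 to 1.05, approximately 507 and 401 reads). Among the 1605 genes of like level 111 (6.92%) had a ratio as high. Top2a, the topoisomerase of S phase and mitosis, was at 103 and 78 (ratio 0.757, interval 0.572 to 1.00), 0.13 above its band on the log2 scale. Foxm1, a transcription factor of mitotic genes, was at 34 and 45 (ratio 1.32, interval 0.825 to 2.10), below the level of silent genes. With the factor of 1.48, all 3 were higher in the deficient library, Mki67 with a ratio of 1.35, and with the factor of 2.0 all 3 intervals lay above 1.

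Within each library, 6 members stood above Mki67 in WT (Ccnd3, Cdkn1b, Rbl2, E2f2, Rb1 and Orc4) and 1, Rb1, did so in the deficient library. Cdkn1b was at 2.05 times the level of Mki67 in WT and 0.636 times in the deficient library. For Ccnd3 these quotients were 2.39 and 0.652. Falls relative to Mki67 were common, since only 6.92% of genes of like level had a ratio as high as Mki67. At a mean of 200 to 500, the band of Cdkn1b and Ccnd3, the median log2 ratio of all genes was -1.22.

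The cyclins of later phases were near the level of silent genes. Ccne1 (23 and 29) and Ccne2 (42 and 42), which act at S-phase entry, were below it in both libraries. Ccna2, the cyclin of S and G2, was at 70 and 62 (ratio 0.886, interval 0.569 to 1.37), 0.36 above its band on the log2 scale. Ccnb2, a mitotic cyclin whose promoter is printed above, was at 55 and 34 (ratio 0.618, interval 0.264 to 1.32). Ccnb1, the main mitotic cyclin, was listed at 12 and 18, but only 41.2% of its 50-base stretches were unique in the genome. Another 54.9% were repeated elsewhere, and unique mapping leaves reads from these out of its value. The mitotic kinases Aurka (41 and 43), Aurkb (27 and 24), Plk1 (20 and 19) and Bub1 (41 and 29) did not exceed silent genes in either library, and their intervals all held 1.

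The MCM helicase unwinds DNA ahead of the replication fork, and the ratios of its 6 subunits ranged from 0.553 to 1.09 on the deposited scale, with all 6 higher under the factor of 2.0. Mcm4 was at 110 in WT and 69 in the deficient library (ratio 0.627, interval 0.444 to 0.894), and Mcm6 at 103 and 57 (ratio 0.553, interval 0.391 to 0.774). Mcm2 was at 82 and 87 (ratio 1.06, interval 0.737 to 1.51), and 13.2% of genes of like level had a ratio as high. The interval of Mcm2 overlapped that of Mcm6 only between 0.737 and 0.774. Mcm3 was at 59 and 41, Mcm5 at 43 and 47, and Mcm7 at 19 and 18, with intervals that held 1. Mcm7 is limited by unique mapping, with 20.6% of its 50-base stretches repeated elsewhere in the genome. A further 16.1% were not found in the genome, which left 63.3% unique.

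All 6 genes of the origin recognition complex, which marks replication origins in resting and cycling cells alike, exceeded silent genes in WT. Each had a lower value in the deficient library on the deposited scale, 4 did with the factor of 1.48, and 0 did with the factor of 2.0. The shares over all genes were 60.0%, 32.6% and 17.5%. Orc4 was highest, at 268 and 155 (ratio 0.578, interval 0.466 to 0.713), then Orc3 at 191 and 120 (ratio 0.628, interval 0.474 to 0.836) and Orc2 at 110 and 61 (ratio 0.555, interval 0.378 to 0.788). Orc1, the subunit whose level follows the cell cycle, was at 66 and 36 (ratio 0.545, interval 0.339 to 0.833). Orc5 (81 and 57) and Orc6 (81 and 59) had intervals that held 1. The ratios of the 6 ranged from 0.545 to 0.728 with overlapping intervals, and relative to genes of like level their median was 0.05.

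Origin licensing and firing factors all stayed below the level of silent genes. Cdc6, which loads the helicase, was at 14 and 10, its partner Cdt1 at 37 and 32, and Cdc45, a part of the active helicase, at 25 and 27. Gmnn, encoding geminin, the inhibitor of Cdt1, was at 50 and 19, 2.63-fold lower, on approximately 14 and 5 reads (ratio 0.380, interval 0.117 to 1.22). Among 9900 genes of its band 2.17% had a ratio as low, yet the interval held 1.

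The sliding clamp and its loader were mostly low too. Rfc1, the large subunit of the loader, was at 113 and 72 (ratio 0.637, interval 0.475 to 0.860). Rfc2 was at 56 and 25 (ratio 0.446, interval 0.169 to 1.04) and Rfc3 at 33 and 15 (ratio 0.455, interval 0.192 to 1.07), both more than 2-fold lower on 8 to 22 reads. Rfc4 was at 48 and 47. Rfc5, the only member at least 2-fold higher, was at 5 and 14 on approximately 5 and 11 reads (ratio 2.80, interval 0.817 to 9.36). Pcna, the clamp itself, was listed at 13 and 7, with 47.1% of its 50-base stretches unique and 45.7% repeated elsewhere, so its value leaves out a large part of the transcript.

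Genes outside the 50 that act in the same phases were also counted. Of 30 enzymes and cofactors of S phase, 24 were lower, 4 higher and 2 equal in the deficient library, with 7 past 2-fold on the lower side and 0 on the higher, beside the 17.4% and 5.89% of all genes. Their median log2 ratio was -0.53, or -0.34 relative to genes of like level, and 12 exceeded silent genes in WT and 3 in the deficient library, a share that over all genes was 31.3% and 20%. With the factor of 1.48, 14 were lower and 16 higher, beside 32.6% of all genes lower. The lowest ratio among the 11 with a mean of at least 50 was that of Rpa3, a subunit of the single-strand binding protein. It was at 102 and 29 (ratio 0.284, interval 0.0668 to 0.836), on approximately 17 and 4 reads. Rpa3 was followed by Cdc7, the kinase that fires origins, at 86 and 38, Dut, which removes dUTP, at 97 and 46, and Rpa1 at 103 and 49. At the other end stood Rpa2 (61 and 63), the flap nuclease Fen1 (56 and 51), the ribonucleotide reductase subunit Rrm1 (88 and 62) and Dbf4 (71 and 46), the partner of Cdc7. In the deficient library all of these named genes except Rpa2 and Rrm1 lay below the level of silent genes (57.0).

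Of 35 further genes of G2 and mitosis, 34 were above 0, of which 27 had a lower and 7 a higher value, with a median log2 ratio of -0.31 and of -0.26 relative to genes of like level (60.0% of all genes were lower). With the factor of 1.48, 10 were lower and 24 higher, beside 32.6% of all genes lower. The lower value was at least 2-fold for 2, Cenpe and Cks2, the latter listed at 12 and 0 on approximately 2 reads, against 17.4% of all genes. Cenpe, a kinetochore motor, was at 89 and 40 (ratio 0.449, interval 0.331 to 0.598), Kif23, a motor of cytokinesis, at 95 and 54, Cenpf at 75 and 44, and Bub3 at 103 and 62. In the deficient library Cenpe, Kif23 and Cenpf lay below the level of silent genes (57.0) and Bub3 above it. Cenpa, the centromeric histone, was at 50 and 57 and Pttg1, securin, at 106 and 70. Relative to genes of like level, 27 of the 34 lay below the median of their band and 7 above it, whereas Mki67 lay above.

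The 7 genes linked to quiescence held 6 with lower values and 4 at least 2-fold lower, with a median log2 ratio of -1.03, or 0.32 relative to genes of like level. Most of the 7 averaged 100 or more, a level at which 95.2% of all genes were lower and 56.8% at least 2-fold lower. Ccng2, a cyclin of non-dividing cells, was at 629 and 189 (ratio 0.300, interval 0.253 to 0.353), and Btg1, an antiproliferative gene, at 760 and 371 (ratio 0.488, interval 0.432 to 0.549). Btg2 was at 531 and 255, Foxo1 at 199 and 86 and Foxo3 at 157 and 98. Tob1 was at 73 and 70, above silent genes in both libraries, and Klf2 at 27 and 39, below the level of silent genes in both. With the factor of 2.0, 4 of the 7 were lower and 3 higher. Over all genes 17.5% were then lower, and the fall past 2-fold that this requires was common at a mean of 100 or more (56.8%).

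**Figure D5:**
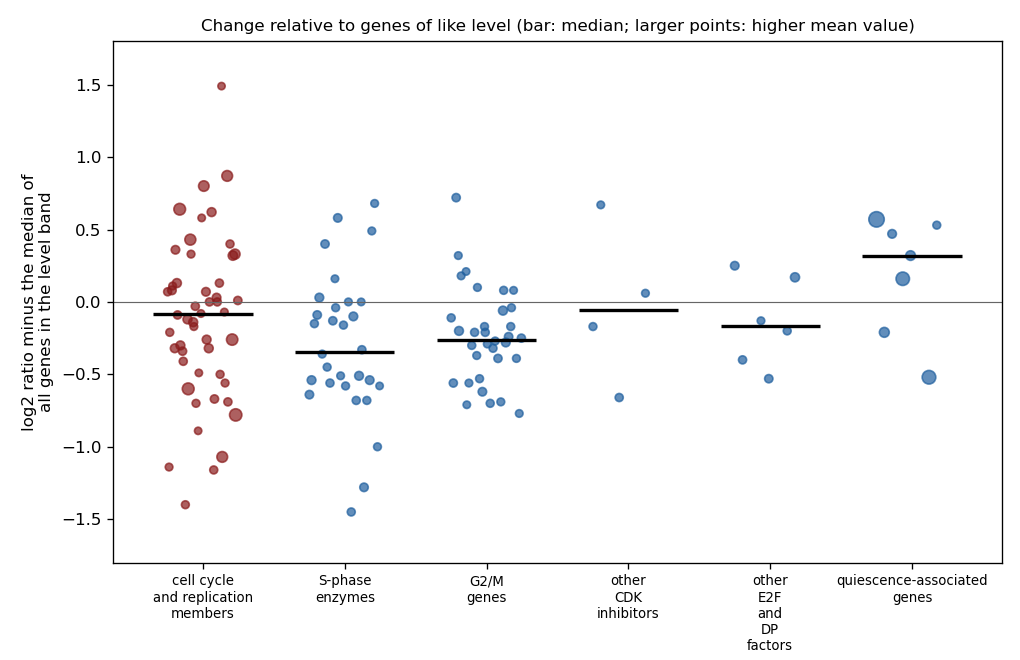
The log2 ratio of Cxxc1-deficient over WT minus the median of all genes in the same level band, for the 50 members (red) and 5 further lists (blue); each point is a gene above 0 in at least 1 library, its size grows with the mean value, and bars are medians. The bars lie at -0.08 for the members, -0.34 for S-phase enzymes, -0.26 for G2/M genes and 0.32 for quiescence-associated genes; Cks2, at 12 and 0, falls below the axis.

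The stage markers differed between the libraries as well. All 11 DP markers, among them Cd4, Cd8a and Rag1, were lower in the deficient library, 10 of them at least 2-fold, beside 96.3% and 84.1% of all genes averaging 500 or more, with a summed value of 39670 in WT and 11167 in the deficient library. With a median of 2029 and 573 they were nevertheless present in both libraries. Of 8 DN markers, 6 were higher, beside 48.5% of all genes with a mean under 50, the level of all but Il2ra. Their summed value was 318 and 506, a gap that came mostly from Il2ra (CD25) at 63 and 207 (ratio 3.29, interval 2.48 to 4.38). In the band of Il2ra, 100 to 200, 0.187% of genes had a ratio as high. The only other interval above 1 was that of Cd44, at 35 and 58 (1.14 to 2.46). Of these 8 markers, 1 exceeded the level of silent genes in WT and 2 in the deficient library. The part of these stage differences in the values of the cycling genes was not tested. Marker lists of other cells had summed values of 217 and 196 for 7 B cell genes, 189 and 207 for 7 erythroid genes, of which Klf1 stood at 29 and 64, 280 and 278 for 8 macrophage and dendritic cell genes, of which Itgam stood at 101 and 107, and 220 and 204 for 8 genes of thymic epithelium and stroma. The globin gene Hba-a1 was listed at 0 in both libraries.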

How the data were processed

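The authors prepared mRNA libraries from DP thymocytes, sequenced 50-base reads on an Illumina HiSeq, mapped them to mm9 and used the Partek Genomic Suite. The submitters' processing notes also name CASAVA 1.8.2 and Bowtie 1.0.1. The deposited value is a score: per gene, a normalized expression level, which the authors gave as whole numbers. The gene annotation and normalization are not given in the sources used here. Reads were kept only when uniquely mapped, so genes with copies elsewhere lose reads (Gapdh was listed at 6 and 10), and uniqueness of each member was taken from the 50-base stretches of its longest GENCODE vM1 transcript in NCBIM37, the assembly of mm9. Stretches of a transcript not found in the genome were counted apart from repeated ones.

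Ratios were taken between deposited values with a floor of 1, in 6 bands of mean value with edges at 25, 50, 100, 200 and 500. The worth of 1 read came from values under 40 of genes of 200 to under 1000 bases with 1 annotated transcript, of which 78.9% (WT) and 76.5% (Cxxc1-deficient) were whole numbers of reads below 4 within the rounding of 0.5. Reads and the Clopper-Pearson 95% intervals of ratios are therefore approximate, compare libraries rather than genotypes and cover counting error only. With 1 library per genotype no test was run, and the interval calculation was tested on simulated data. Samples were grouped by title. The members and lists were chosen with earlier results of these data known. Further genes named were the 4 lowest and 4 highest ratios of the S-phase and G2/M lists among genes with a mean of at least 50 and above 0 in both libraries, the other lists in full, and the targeted gene. A marker gene of the DP list is not reported here. Alternatives were other scalings, pseudocount, level filters, threshold and bands. Python 3.11.15, pandas 2.3.3 and scipy 1.17.1 were used.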

Additional observations from a re-analysis of the deposited data

How the results depend on the processing

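On the deposited scale 40 members were lower, 8 of them by 2-fold or more, and 1 was at least 2-fold higher, with a median log2 ratio of -0.50 and of -0.08 relative to genes of like level. Scaling to the same median moved none of these past its tolerance. Scaling to the same 75th percentile gave 5 at least 2-fold lower and a median of -0.12. Scaling to the same sum without the 100 highest genes gave 23 lower, 3 and 2 past 2-fold (lower and higher) and a median of 0.06. Equalizing the median of genes averaging 100 or more gave 8 lower, 2 and 8 past 2-fold (lower and higher) and a median of 0.49. The median log2 ratio of all genes was 0.19, 0.36 and 0.79 under these 3, against -0.20 as deposited. The share of all genes lower was 40.3%, 32.6% and 17.5%, against 60.0% as deposited. The median of the members relative to genes of like level stayed between -0.10 and -0.05. A pseudocount of 10 left 0 at least 2-fold higher. Keeping the 25 members with a mean of at least 50 gave 24 lower, 5 and 0 past 2-fold and a median of -0.67. Over all genes of that level 87.7% were lower, with a median of -0.76. Keeping the 10 with a mean of at least 100 gave 10 lower, 4 and 0 past 2-fold, a median of -0.74 and 0.32 relative to genes of like level. Over all genes of that level 95.2% were lower, with a median of -1.08. A threshold of 1.5-fold gave 21 lower and 2 higher, and the share of all genes past it was not counted. Bands of the WT value turned the median relative to like level to 0.04. Subtracting the olfactory receptor median, chosen after seeing the data, kept 44 members, with 20 at least 2-fold lower and a median of -0.92. Of these 38 were lower, beside 66.9% of all genes, whose median was -0.7. Relative to genes of like level the median of the members was then -0.06. Apart from fewer genes under the filters, the cause of these moves was not tested.

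No paired analysis was possible because WT and deficient mice gave 1 library each, which also leaves no replicate to leave out. Depth limits most members: 25 of 50 have a mean under 50, near the level of silent genes, and 0 of these had an interval that excluded 1. Genes with copies elsewhere in the genome, such as Pcna and Ccnb1, lose reads.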
